A study of Oryza sativa with 2 samples.

Results

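Rice genes for sugar transport, hexose phosphorylation, sucrose turnover and starch synthesis were compared between leaves of OsEATB transgenic seedlings and leaves of nontransgenic seedlings. The genes were those of a reference rice gene table with a symbol or synonym of the SWEET, SUT, MST, HXK, SUS, SPS, CIN, GBSS, SSI, SBE or AGPS families. The names TMT, BE and AGPL, followed by a digit or class letter, matched 0 genes. The rule took 57 of 39387 genes in the table, and 49 of them had a probe set of their own, among 17905 genes with one. The 8 without a probe set, SWEET3a, SWEET13, HXK1, HXK5/HXK9, HXK7/HXK10, SUS7, CIN5 and CIN6, are not analysed here. A pair of names joined by a slash stands for 1 gene that the table lists under both, since hexokinase names follow different numberings.

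Both groups were indica cultivar 9311, kept at 28 °C on Murashige and Skoog medium of reduced strength with 14 h of light and 10 h of darkness. One group carried the OsEATB transgene, for an ERF-family transcription factor, and the other did not. The labels used here do not state the promoter that drives the transgene or the number of transgenic lines. Leaf RNA of 10 plants at the 4-leaf stage was hybridised for each group to 1 one-colour oligonucleotide array with 57381 probe sets. With 1 array per group there is no spread between plants, no test between groups and no p-value, and a ratio describes these 2 arrays. Precision is limited by that number of arrays.

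In leaves, sucrose is made from triose phosphates by sucrose phosphate synthase, exported to the cell wall space by SWEET transporters and loaded into the phloem by proton-coupled SUT symporters. Sucrose is cleaved by invertases or by sucrose synthase, and hexokinases phosphorylate the hexoses; some hexokinases also act as glucose sensors. Starch is built from ADP-glucose, which ADP-glucose pyrophosphorylase supplies to starch synthases and branching enzymes. In cereals many of these proteins have separate leaf and grain isoforms.

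SWEET14 and GBSS1 had lower signals in leaves of the transgenic seedlings, by 2.54-fold and 2.05-fold, and the hexokinase gene HXK4/HXK8 (LOC4326776) a higher one, by 2.38-fold. SUT1 and SWEET2b were 1.87-fold and 1.86-fold lower, short of 2-fold. Of 5 sucrose synthase genes with a ratio, 5 had a ratio above 0, beside 49.4% of all genes with a ratio. The largest was that of SUS6, 1.76-fold higher, while SUS1 and SUS2 were 1.05-fold and 1.01-fold higher. The direction of SUS2 changed with normalization. Of the other genes with a ratio, the cell wall invertase gene CIN4 was 1.56-fold higher and SUS4 1.46-fold higher, and the rest lay within 0.5 of 0 on the log2 scale.

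Signals are log2 MAS5 values of the brightest probe set of each gene, given for the nontransgenic array first, and a ratio is the transgenic minus the nontransgenic log2 signal. Dim signals were raised to a floor, the 40th percentile of each array, which lay at 4.41 for nontransgenic and 4.61 for transgenic leaves. Of the 49 genes, 39 were above the floor on both arrays. SWEET5 and CIN2 were above it on the nontransgenic array alone. SWEET5 gave a bound, so that 40 genes had a ratio, while the bound of CIN2 pointed against its signals. The other 9 genes, CIN2 and 8 below the floor on both arrays, had no ratio. Brightness differs between probe sets for reasons other than transcript abundance, so levels are compared between arrays and not between genes.

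**Figure D1:**
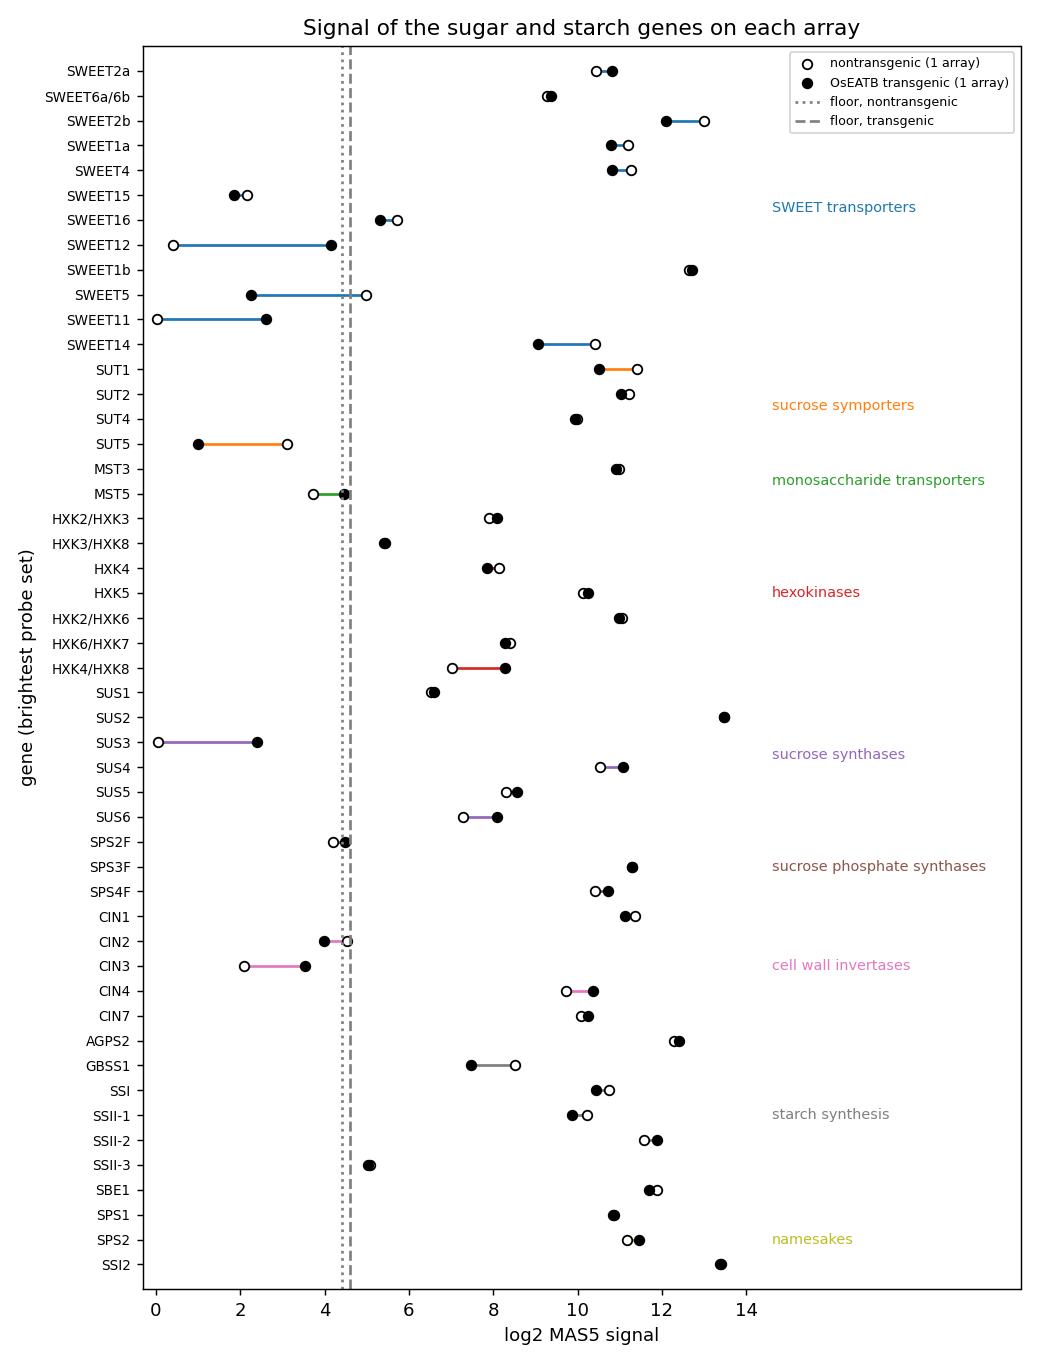
Log2 MAS5 signal (horizontal axis) of the 49 genes (vertical axis, grouped by step) on the nontransgenic array (open circles) and the OsEATB transgenic array (filled circles), 1 array each. Vertical lines mark the floor of each array; the circles lie close together for most genes above it, and apart for SWEET14, SUT1, SWEET2b, HXK4/HXK8 and GBSS1.

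Among these 40 genes, 1 exceeded 2-fold upwards and 2 did so downwards. Over all 16188 genes with a ratio, 5.61% were higher and 4.14% lower by that measure, so the counts lie near the background. The 40 genes had a median log2 ratio of -0.03, beside -0.005 over all genes with a ratio. The ratio lay within 0.5 of 0 on the log2 scale for 32 of the 40, or 80.0%, against 71.7% of all genes. The frequency of 2-fold ratios depended on brightness. All genes with a ratio were split by mean brightness into 4 groups of the same size. A difference of 2-fold in either direction was found in 1.61% of the brightest group, 3.46% of the next, 9.76% of the one after and 24.2% of the dimmest. Of the sugar and starch genes, 11, 16, 8 and 5 lay in these groups, in the same order. Quartiles of the log2 ratio over all genes were -0.15 and 0.21 in the brightest group and -0.45 and 0.68 in the dimmest. The shares of 80.0% and 71.7% are not matched for brightness.

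Where a gene had several probe sets, the scatter of their log2 ratios gave a measure of error within the arrays. It was 0.56 in the dimmest, 0.35 in the middle and 0.28 in the brightest of 3 brightness groups, computed from the brightest pair of probe sets of each gene. These probe sets read the same RNA, so the spread between plants does not enter. A log2 ratio of at least 2 times that scatter was found for 4 of the 40 genes, SWEET14, SWEET2b, SUT1 and HXK4/HXK8, and for 10.8% of all genes with a ratio. GBSS1, SUS6, CIN4 and SUS4 fell short of it.

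**Figure D2:**
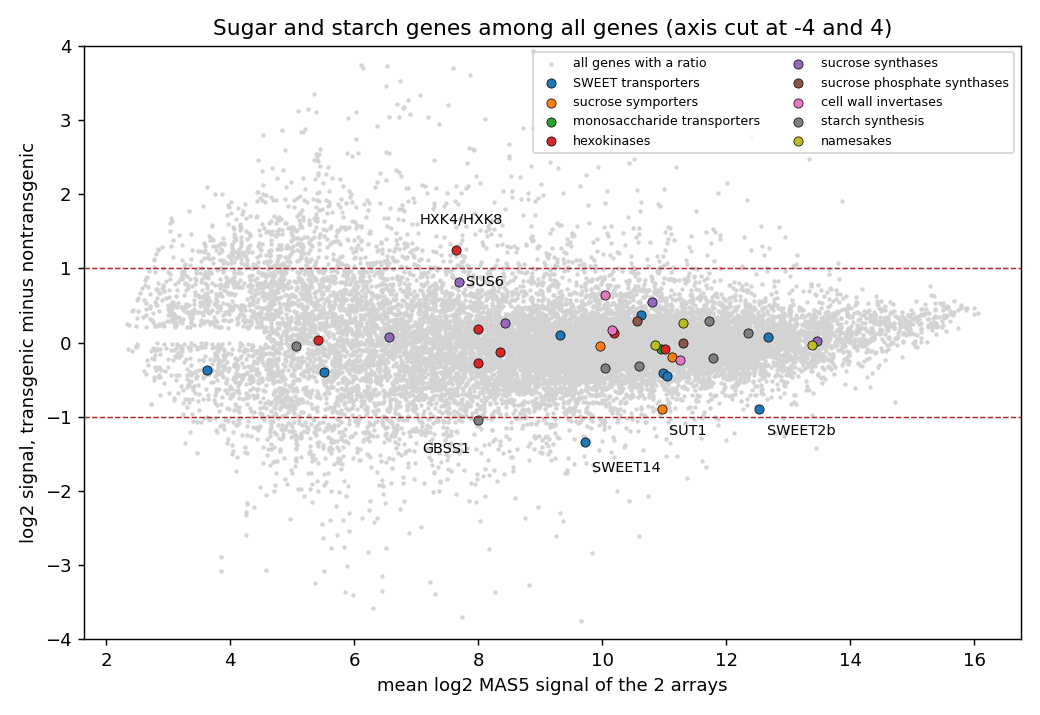
Log2 ratio, transgenic minus nontransgenic (vertical axis), against the mean log2 MAS5 signal of the 2 arrays (horizontal axis) for all 16188 genes with a ratio (grey) and for the sugar and starch genes (coloured by step). Dashed lines mark 2-fold; SWEET14 and SWEET2b lie below most genes of their brightness, while HXK4/HXK8 and GBSS1 lie among dimmer genes, where 2-fold ratios are more frequent.

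SWEET proteins let sugars pass through membranes along their gradient. SWEET14, which transports sucrose and is induced by Xanthomonas effectors in susceptible rice, had a log2 signal of 10.40 in nontransgenic and 9.06 in transgenic leaves. The log2 ratio was -1.34. Its further probe set read 9.48 and 8.18, a log2 ratio of -1.29. The brightest one is marked as open to cross-hybridisation, but the other bears no such mark, and both were lower by a like amount. Both carry the same cluster number, so they are not independent readings. In its brightness group, the second of 4, 1.56% of genes were as much as 2-fold lower.

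SWEET2b stood at 12.99 in nontransgenic and 12.09 in transgenic leaves, a log2 ratio of -0.90. Its second probe set read 12.76 and 11.95, a log2 ratio of -0.81. The brightest one is marked as open to cross-hybridisation, and both carry the same cluster number, so they are not independent readings. SWEET2 of Arabidopsis lies in the vacuolar membrane. SWEET2a, the closest named relative in the list, had signals of 10.44 and 10.82, a log2 ratio of 0.37 in the opposite direction. Whether SWEET2a and SWEET2b differ was not tested.

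Most other SWEET genes differed less. SWEET4, a hexose transporter that acts in grain filling, had signals of 11.28 and 10.82, a log2 ratio of -0.45. SWEET1a stood at 11.19 and 10.78, a log2 ratio of -0.41, but its dimmer probe set read 6.17 and 6.64, so that its probe sets disagree in direction. SWEET1b had 12.63 and 12.71. The gene listed as both SWEET6a and SWEET6b was at 9.27 and 9.37. The dim SWEET16, whose Arabidopsis namesake is a vacuolar transporter, was at 5.72 and 5.31, a log2 ratio of -0.40.

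SWEET11, SWEET12 and SWEET15, which like SWEET14 belong to the sucrose-transporting clade, were below the floor on both arrays, at log2 signals between 0.03 and 4.15. SWEET14 was therefore the member of that clade with a measurable signal here, SWEET13 having no probe set. SWEET5 stood at 4.98 on the nontransgenic array and below the floor on the transgenic one, at least 1.29-fold lower. In all, 6 of 9 SWEET genes with a ratio were below 0 and 3 above, with a median log2 ratio of -0.40. Over all genes with a ratio, 49.4% were above 0. The 6 include SWEET5, which gave a bound, and SWEET1a, whose probe sets disagree. Of the 9, only SWEET14 and SWEET2b reached 2 times the scatter between probe sets, which 10.8% of all genes with a ratio did. In bulk leaf RNA, fewer cells of a type and less RNA per cell cannot be told apart.

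SUT symporters move sucrose into cells against its gradient. SUT1, which acts in phloem transport and in the germinating and filling grain of rice, stood at 11.41 in nontransgenic and 10.51 in transgenic leaves. Its log2 ratio was -0.90, or 1.87-fold lower, read by a single probe set. SUT2, found in the vacuolar membrane of rice, had signals of 11.22 and 11.03, a log2 ratio of -0.19, and its dimmer probe set had one of 0.11. SUT4 was at 9.98 and 9.94. SUT5 was below the floor on both arrays, at 3.12 and 0.99.

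All 3 SUT genes with a ratio were below 0 on their brightest probe sets, while 49.4% of all genes with a ratio were above 0. SUT4, at -0.04, turned to 0.01 after lowess centring and to 0.002 after quantile normalization. The dimmer probe set of SUT2 was above 0, at 0.11. The ratios of SUT2 and SUT4 were small beside the scatter between probe sets. The median log2 ratio of the 3 SUT genes was -0.19, and it was -0.55 once probe sets open to cross-hybridisation were dropped, which leaves out SUT4. The monosaccharide symporter gene MST3 stood at 10.98 and 10.90, a log2 ratio of -0.08. MST5 was below the floor, at 3.74 and 4.47.

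**Figure D3:**
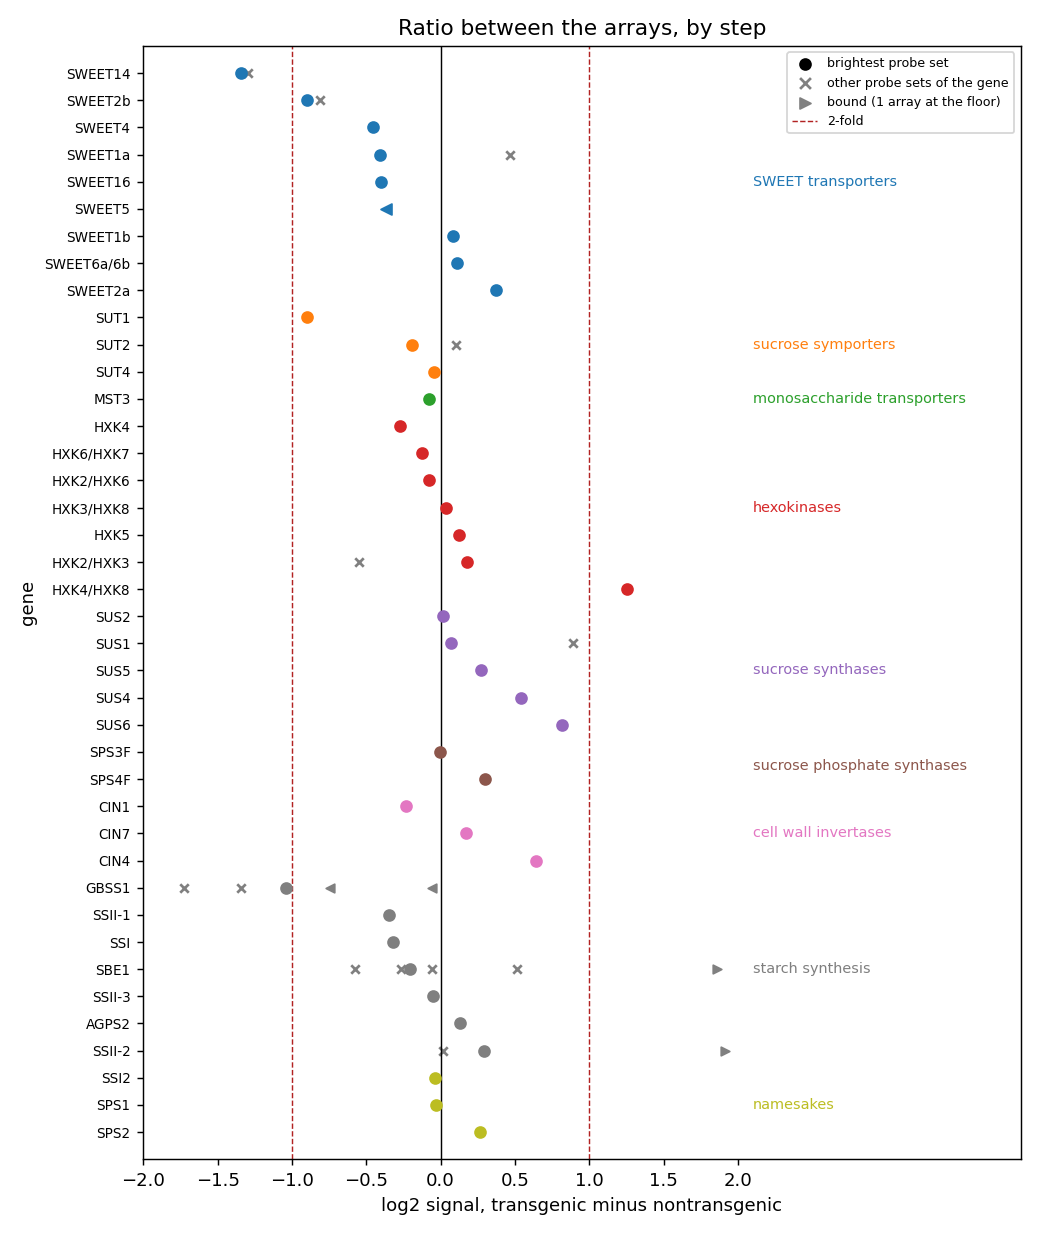
Log2 ratio, transgenic minus nontransgenic (horizontal axis), of the 40 genes with a ratio (vertical axis, grouped by step). Coloured symbols are the brightest probe set and grey symbols the gene's other probe sets; triangles are bounds where 1 array was at the floor, and dashed lines mark 2-fold. Grey and coloured symbols lie together for SWEET14 and SWEET2b and far apart for SBE1 and SSII-2.

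Hexokinases phosphorylate glucose and fructose. HXK4/HXK8 (LOC4326776) had a log2 signal of 7.02 in nontransgenic and 8.27 in transgenic leaves. The log2 ratio was 1.25. Its 1 probe set is marked as open to cross-hybridisation, and with such probe sets dropped the gene has no value. In its brightness group, the third of 4, 4.89% of genes were at least 2-fold higher.

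The other 6 hexokinase genes had log2 ratios from -0.27 to 0.18. HXK5, a glucose sensor of rice, stood at 10.12 and 10.25. The gene listed as HXK2 and HXK6 was at 11.06 and 10.98, and HXK4 (LOC4342654), a plastid enzyme in rice, at 8.13 and 7.86. The gene listed as HXK6 and HXK7 had 8.41 and 8.28, and HXK3/HXK8 (LOC4326516) had 5.40 and 5.44. HXK2/HXK3 read 7.91 and 8.09 on its brightest probe set and 5.90 and 5.35 on the next, so that its probe sets disagree in direction. The step had a median log2 ratio of 0.04, with 4 genes above 0 and 3 below, and of -0.06 after quantile normalization.

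Sucrose synthases cleave sucrose reversibly to UDP-glucose and fructose. SUS6 stood at 7.28 in nontransgenic and 8.10 in transgenic leaves, a log2 ratio of 0.82, with its other probe set below the floor. SUS4 was at 10.53 and 11.08, a log2 ratio of 0.54. SUS5 was at 8.29 and 8.56, a log2 ratio of 0.27. All 3 were higher in the transgenic leaves and by less than 2-fold.

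SUS2 had signals of 13.46 and 13.48, and SUS1 of 6.52 and 6.59, with a log2 ratio of 0.89 on the dimmer probe set of SUS1. SUS3 was below the floor on both arrays. The 5 ratios above 0 had a median of 0.27, while 49.4% of all genes had a ratio above 0. SUS2 had a log2 ratio of 0.01, which turned to -0.08 after quantile normalization and after lowess centring. The remaining 4 genes stayed above 0 in every alternative that gave them a value.

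The 2 sucrose phosphate synthase and 3 cell wall invertase genes with a ratio differed by less than 2-fold. SPS3F stood at 11.30 on both arrays and SPS4F at 10.41 and 10.71, a log2 ratio of 0.30, while SPS2F was below the floor. Cell wall invertases split sucrose outside the cell. CIN4 stood at 9.73 and 10.37, a log2 ratio of 0.64 or 1.56-fold higher, on 1 probe set that may hybridise to several transcripts. CIN1 was at 11.37 and 11.13, and CIN7 was at 10.08 and 10.25. CIN2, known as GIF1 for its part in grain filling, was near the floor, at 4.54 and 3.99, and CIN3 was below it, at 2.08 and 3.55.

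In starch synthesis, GBSS1, the Waxy gene for the granule-bound synthase that makes amylose in the grain, was 2.05-fold lower, at log2 signals of 8.52 in nontransgenic and 7.48 in transgenic leaves. The other two probe sets above the floor on both arrays read 8.67 and 6.95, and 7.39 and 6.05, log2 ratios of -1.73 and -1.34. Both are marked as open to cross-hybridisation and carry the same cluster number, so they are not independent readings. Of 6 probe sets, 5 had a ratio and all 5 were below 0. The ones at the floor on the transgenic array gave bounds, which could only lie below 0, and they carry that cluster number too. The probe set without a ratio was below the floor on both arrays, at 3.86 and 4.50. The log2 ratio of -1.04 is close to the 2-fold limit, and it was -0.96 after lowess centring on brightness and -0.99 after quantile normalization, with the direction kept. In its brightness group, the third of 4, 4.87% of genes were as much as 2-fold lower.

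Soluble starch synthases elongate the chains of amylopectin. SSI stood at 10.75 in nontransgenic and 10.43 in transgenic leaves, a log2 ratio of -0.32, and SSII-1 at 10.22 and 9.87, a log2 ratio of -0.35. SSII-2 had signals of 11.58 and 11.87, a log2 ratio of 0.29, with 0.01 on a second probe set and at least 1.91 on the third, which was below the floor on the nontransgenic array. Those of SSI and SSII-1 are close to the scatter between probe sets. SSII-3, the ALK gene that sets gelatinisation of grain starch, was dim, at 5.08 and 5.03.

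AGPS2, a small subunit of ADP-glucose pyrophosphorylase, stood at 12.28 and 12.41. SBE1, a branching enzyme gene with 8 probe sets, was at 11.89 and 11.68, a log2 ratio of -0.20. Of its 6 probe sets with a ratio, 4 were below 0 and 2 above, from -0.58 to at least 1.86, the latter from a probe set below the floor on the nontransgenic array. SBE1 is therefore uncertain. Of the 7 starch synthesis genes, 5 had a ratio below 0 and 2 above, with a median of -0.20. Among all genes with a ratio, 49.4% lay above 0. The 5 include SBE1 and the dim SSII-3, at -0.05. None of the 7 reached 2 times the scatter between probe sets, which 10.8% of all genes with a ratio did. With the mean over probe sets the median was -0.05. It was also -0.05 once probe sets open to cross-hybridisation were dropped, which leaves out AGPS2 and SSII-1. That setting also reads SBE1 and SSII-2 on dimmer probe sets, at log2 ratios of at least 1.86 and of 0.01.

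The rule also took 3 genes by their letters whose names are used in rice for other enzymes, SPS1 (LOC4341844) and SPS2 (LOC9267741) for solanesyl diphosphate synthases and SSI2 for a fatty acid desaturase. Their log2 ratios were -0.03, 0.27 and -0.04. Without them the counts of 2-fold genes were 1 higher and 2 lower of 37, with a median of -0.04.

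Among 9 of the sugar and starch genes with 2 or more probe sets that gave a ratio, all probe sets of the gene went the same way in 5 and differed in direction in 4. SWEET14, SWEET2b, GBSS1, SSII-2 and SUS1 were the 5. For GBSS1 and SSII-2 the ratios include bounds, whose direction was fixed by the array at the floor. The remaining 4 were SWEET1a, SUT2, HXK2/HXK3 and SBE1, whose brightest probe sets had log2 ratios no further from 0 than that of SWEET1a.

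Other genes of the pathway were taken from lists of starch breakdown, vacuolar and neutral invertase, sucrose phosphatase, fructokinase, trehalose, plastid phosphate exchange and SnRK1 kinase genes. Of 29 with a probe set, 26 had a ratio. While 5.61% of all genes with a ratio were at least 2-fold higher and 4.14% lower, 0 of these 26 reached 2-fold in either direction. With 26 genes, the count of 0 is not set apart from that background, and no test could be run. Their median log2 ratio was -0.08, from -0.53 for GWD3, a starch-phosphorylating dikinase, to 0.63 for the amylase gene amy2A. Both genes were chosen after their values were seen. All 3 neutral invertase genes, NIN1, NIN3 and CINV1, had ratios above 0, with a median of 0.33 and CINV1 lowest at 0.06. Both sucrose phosphatase genes, which act directly after sucrose phosphate synthase, were below 0, at -0.32 and -0.35. None of these invertase and phosphatase ratios reached 2 times the scatter between probe sets, which 10.8% of all genes with a ratio did. Over all genes with a ratio, 49.4% were above 0.

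The leaf label was checked against marker genes. Of 6 leaf mesophyll markers with a probe set, among them genes for Rubisco, its activase and light-harvesting proteins, 5 had signals above 15 and log2 ratios from 0.39 to 0.49. RBCS1 was below the floor on both arrays. Of 5 endosperm markers, GLUA1, GluB4 and RP5 were below the floor, while GLUA2 stood at 10.96 and 11.23 and the gene listed as GLB1, taken by its symbol alone and possibly another gene of that name, at 12.27 and 11.87. Of 2 root markers, Lsi2 was below the floor and Lsi1 was at 8.62 and 9.57. The part of these markers in the lower signal of GBSS1, best known from the grain, was not tested.

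**Figure D4:**
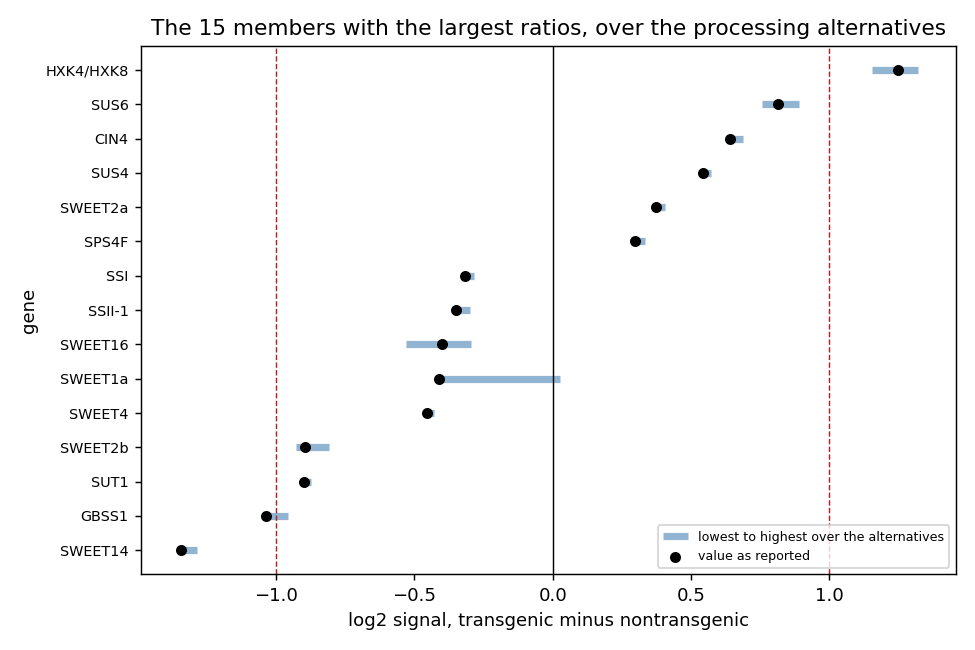
Log2 ratio, transgenic minus nontransgenic (horizontal axis), for the 15 genes with the largest ratios among those at or above the array median (vertical axis). Points are the values given in the text and bars run from the lowest to the highest value over the processing alternatives; SWEET14 stays below -1 and HXK4/HXK8 above 1 wherever they have a value, and GBSS1 crosses the 2-fold line.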

How the data were processed

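Per the submitters' processing notes, the authors made the signals with MAS5. No source used here gives its version, target for scaling or detection calls. The deposited log2 values were made by the authors; unlogged, both arrays had a mean of 500.1 with 2% of values trimmed at each end, so overall brightness differences are scaled out. No column was left unmapped.

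Control probe sets (187) were set apart. Of the rest, 22436 had 1 gene in the platform's gene table, 95 had several and 34663 had none; all 17905 genes were found by gene number in a RefSeq rice table (assembly ASM3414082v1, a japonica genome), used for names. Signals below the 40th percentile were raised to it. A gene below it on both arrays, or whose bound pointed against its signals, had no ratio. The members and lists were chosen with earlier results of these data known. Genes were named by rule: every member that reached the array median on 1 array, with the others by their range. From the pathway lists 5 genes were dropped as members or namesakes. Counting was tested on simulated data. Python 3.11.15, pandas 2.3.3 and statsmodels 0.14.6 were used. No paired analysis or test between groups exists with 1 array per group, and no sequences were used. OsEATB was matched by no name in the table and is not analysed here.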

Additional observations from a re-analysis of the deposited data

How the results depend on the processing

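Counts of 2-fold genes were 1 higher and 2 lower with the floor at the median, with median centring, and with level filters at the array median on 1 array or on the mean of both. Without a floor they were 5 higher and 4 lower, the additional genes being CIN3, SUS3, SWEET11, SWEET12, SUT5 and SWEET5, all with a signal below the floor on at least 1 array. With a filter at the 75th percentile 0 genes were higher, since HXK4/HXK8 does not reach it, and 2 were lower. The lower count was 1 with quantile normalization, with lowess centring and with the mean over probe sets, where GBSS1 had a log2 ratio of -0.98. With a pseudocount of 16 the 2 lower genes were SWEET14 and SWEET5. With probe sets open to cross-hybridisation dropped, SBE1, at 1.86, took the place of HXK4/HXK8, which then has no value. The median over the sugar and starch genes ranged between -0.07 and -0.003. SWEET14 kept a 2-fold ratio in 11 of 11 alternatives and GBSS1 in 7 of 11. These tallies include settings that left the value unchanged. Removing the floor, raising it to the median and filtering by level changed the ratio of neither gene. Among settings that altered the ratio of GBSS1, median centring alone kept 2-fold, at -1.05. GBSS1 fell short with a pseudocount, at -0.97, with quantile normalization, with lowess centring and with the mean over probe sets. SWEET1a had 0.03, SSII-2 0.74 and SBE1 0.21 as the mean over probe sets; these causes were not tested. SWEET14, GBSS1 and HXK4/HXK8 kept their direction in every alternative that gave them a value. No paired analysis was possible because each group has 1 array. Dim signals limit SWEET5, SWEET16, SSII-3 and HXK3/HXK8.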
